A study of Mus musculus with 15 samples.

Results

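The SLAM family and CD2-type receptors described here are the products of 7 genes, Slamf1, Slamf6, Slamf7, Cd84, Ly9, Cd48 and Cd2, of 19938 genes measured on the arrays. They were chosen by symbol among probe sets that the platform annotation gives to exactly 1 gene, and each had 1 such probe set. Each array held the amplified RNA of germinal centre B cells from the spleen of female mice, taken on day 10 of the response. The donor cells were of the SwHEL strain, which carry a knocked-in receptor for hen egg lysozyme and the CD45.1 marker, and had been transferred into C57BL/6J mice that carry CD45.2. The recipients were immunized with sheep red blood cells coupled to HEL3x, a lysozyme mutant. Donor cells were gated as CD45.1+, CD45.2-, IgG1+ and CD38 low, so the gate leaves out host cells and T cells as far as it is pure.

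Light zone cells were sorted as CD86 high and CXCR4 low and dark zone cells as CXCR4 high and CD86 low, and each zone was divided by affinity, high or low. The groups were Dzhi (dark zone, high affinity, 4 arrays), Dzlo (dark zone, low affinity, 4 arrays), Lzhi (light zone, high affinity, 3 arrays, with replicate numbers 1, 2 and 4) and Lzlo (light zone, low affinity, 4 arrays). All 4 groups share the donor cells, the antigen and the day, and all cells start from 1 knocked-in receptor, which limits them as a model of a mixed response. The labels do not say whether the samples came from separate mice or pools, so p-values rest on a spread between samples that may be technical. The descriptions carry codes that fall into 4 experiments, called A to D here. No Lzhi array came from experiment D, and code B takes 1 form on dark zone arrays and another on light zone arrays.

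SLAM family receptors sit on the surface of lymphocytes, and most of them bind the same receptor on a neighbouring cell. Their tails recruit the small adaptor SAP, encoded by Sh2d1a, in T cells, and can recruit phosphatases where SAP is missing. In the germinal centre they are known for strengthening the contact between B cells and follicular helper T cells. CD48 differs in that it is anchored by a lipid and serves as the ligand of CD2 in the mouse and of CD244, and CD2 itself is an adhesion receptor shared by T, NK and mouse B cells.

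The 6 genes other than Cd2 lie together on chromosome 1. In the order of genes listed as coding in the GRCm38 reference table they run Ly9, Slamf7, Cd48, Tma7-ps, Slamf1, Cd84 and Slamf6, so 6 of the 7 genes of that run were members. Cd2 is on chromosome 3. Promoter sequences of RefSeq (GRCm38.p6) were matched for 5 of the 7 members, Slamf1, Slamf6, Slamf7, Cd84 and Cd48. The promoters of Slamf1 and Slamf7 are shown because these genes of 1 gene run had zone differences of opposite sign, and that of Cd84 because it shared with Slamf7 a match that few promoters hold. Capitals mark matches to the AP-1 motif TGANTCA and to the E-box CANNTG, searched on both strands, and no match overlapped another. Each sequence is the first 240 bases of a promoter window, upstream of the start site, and reads 5′ to 3′ on the strand of its gene. Slamf1 is at chr1:171766882-171767121 on the plus strand, Slamf7 at chr1:171649010-171649249 on the minus strand and Cd84 at chr1:171839447-171839686 on the plus strand.
Slamf1: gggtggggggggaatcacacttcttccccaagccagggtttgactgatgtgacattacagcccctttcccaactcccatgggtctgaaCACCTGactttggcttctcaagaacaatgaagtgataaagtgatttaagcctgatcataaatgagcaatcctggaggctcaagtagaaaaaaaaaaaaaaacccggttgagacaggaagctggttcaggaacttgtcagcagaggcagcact
Slamf7: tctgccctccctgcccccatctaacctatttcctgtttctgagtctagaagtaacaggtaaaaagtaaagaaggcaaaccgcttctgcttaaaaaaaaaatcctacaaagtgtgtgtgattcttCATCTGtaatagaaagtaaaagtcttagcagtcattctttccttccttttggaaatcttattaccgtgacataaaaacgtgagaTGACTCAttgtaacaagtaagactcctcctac
Cd84: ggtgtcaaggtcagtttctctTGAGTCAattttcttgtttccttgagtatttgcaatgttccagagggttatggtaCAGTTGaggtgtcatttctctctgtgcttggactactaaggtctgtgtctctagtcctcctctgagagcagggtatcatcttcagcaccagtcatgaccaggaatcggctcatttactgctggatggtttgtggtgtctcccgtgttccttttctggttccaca

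Within the first 240 bases of their windows, the Slamf7 and Cd84 promoters each held 1 AP-1 match, and Slamf1, Slamf6 and Cd48 held 0. Of the 32851 promoters in the same table, cut likewise, 6.58% held a match. Each of the 5 promoters held 1 E-box match, a motif found in 65% of all promoters. The motifs GAGGAA, the core bound by PU.1, and ATGCAAAT, the octamer, had 0 matches in the 5 promoters and stood in 22.3% and 1.57% of all. A match describes these letters only, and bases outside these 240 were not searched. Slamf7 and Cd84, which shared the AP-1 match, differed in sign between zones: the light zone minus dark zone difference was -0.45 ± 0.15 for Slamf7 and 0.26 ± 0.22 for Cd84, and neither passed.

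All values are RMA values on the log2 scale, in which a difference of 1 is a 2.00-fold difference. Levels of different genes come from different probe sets and are not compared. Errors of differences are standard errors of limma's fit of 4 group means to all 15 arrays, and a gene was called at a Benjamini-Hochberg adjusted p under 0.05 over 19938 genes. Array medians lay between 5.57 and 5.74. Markers of B cells (7 of 8 measured) had array means between 10.25 and 10.79 and those of germinal centre B cells (8 of 10 measured) between 9.42 and 9.89, so the labelled cell type stood in every array. In bulk samples, fewer cells of a type and less RNA per cell cannot be told apart, and the number of arrays limits the precision.

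Of the arrays, 2 stood apart, the low-affinity D arrays (both low-affinity arrays of experiment D, Dzlo replicate 3 and Lzlo replicate 3). Their mean over 17 measured T cell markers of 19 was 5.64 and 6.50, against 5.02 to 5.74 in the other 13 arrays. Neutrophil markers, 9 of 9 measured, had means of 8.26 and 9.41 against 5.17 to 7.01, and macrophage and dendritic cell markers, 12 of 13 measured, 5.76 and 6.28 against 4.90 to 5.53. NK cell markers, 10 of 11 measured, stood at 5.13 and 5.99 against 4.14 to 4.86. RMA values have no zero and come without detection calls, so no marker could be called absent. The zone and affinity differences of the members and of the partners named were also computed without these 2 arrays.

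**Figure D1:**
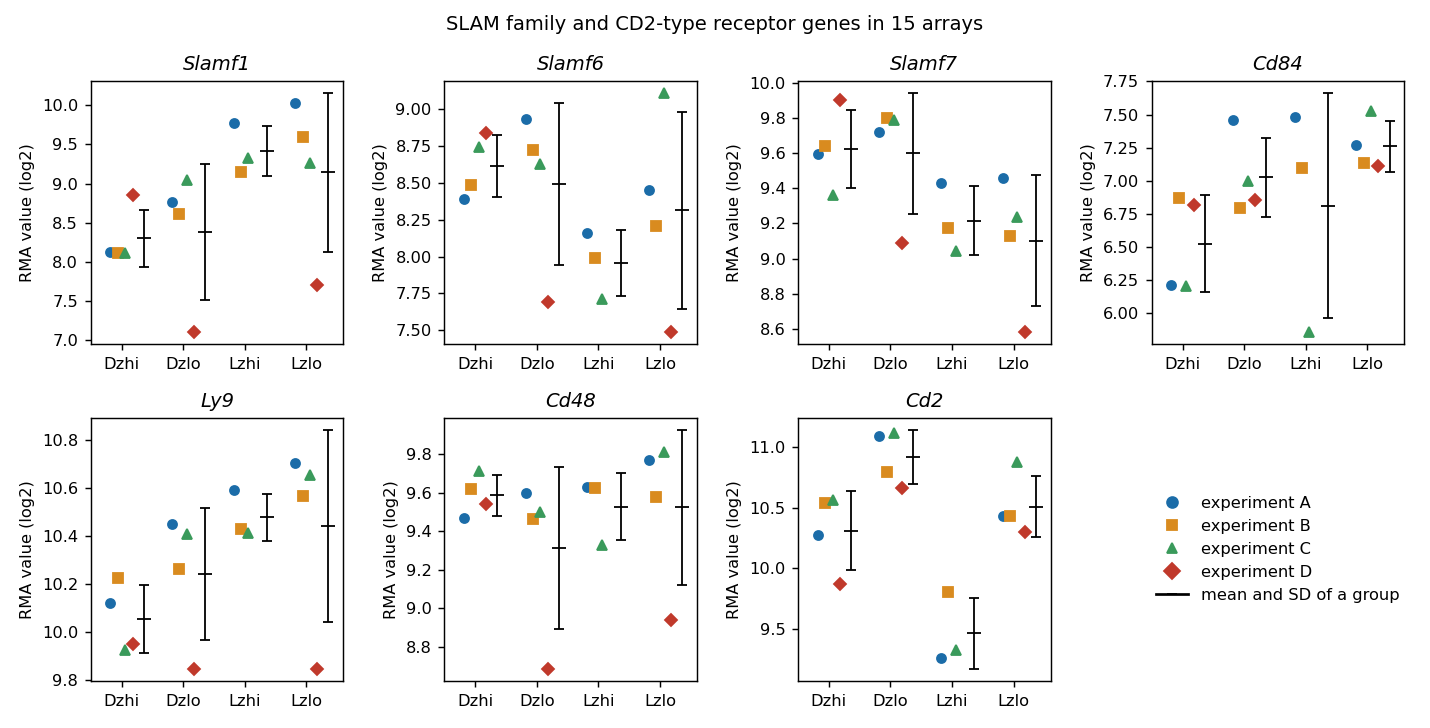
RMA values (log2) of the 7 receptor genes in each of the 15 arrays, with colour and shape for experiments A to D, and the mean and SD of each group beside its points. Cd2 is lowest in the 3 Lzhi arrays, between 9.27 and 9.80, and the red diamonds of Dzlo and Lzlo lie below the other arrays of their group for most genes.

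Between zones, 0 of the 7 members were called in limma, against 31 of 19938 genes, or 0.155%. At an unadjusted p under 0.05 there were 4 members, Slamf1 and Ly9 higher in light zone cells and Cd2 and Slamf7 lower, against 4.38% of all genes. The members' median difference was 0.08 and that of all genes -0.01. Among high-affinity cells alone, 4 of 7 members had light zone arrays that did not overlap the dark zone arrays (Slamf1 and Ly9 above, Slamf6 and Cd2 below), against 3.69% of all genes. Among low-affinity cells, which include the 2 arrays that stood apart, it was 0 of 7, against 1.91%. Without those 2 arrays it was 3 of 7 (Slamf1 and Ly9 above, Slamf7 below), against 7.99% of all genes.

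Slamf1 (Entrez 27218) encodes SLAM, or CD150, the receptor that gave the family its name. Its values were 8.13, 8.12, 8.12 and 8.85 in Dzhi replicates 1 to 4, and 9.77, 9.15 and 9.33 in the 3 Lzhi arrays. Every high-affinity light zone array lay above every high-affinity dark zone array. Low-affinity cells gave 8.76, 8.62, 7.10 and 9.05 in Dzlo and 10.02, 9.59, 7.70 and 9.26 in Lzlo, replicates 1 to 4. The 2 lowest values of all 15 were replicate 3 of each low-affinity group, from experiment D. The low-affinity zones overlapped only through Lzlo replicate 3, at 7.70. Over both affinities the light zone value was 0.94 ± 0.35 above the dark zone value, a 1.92-fold difference that did not pass (limma, adjusted p = 0.783). Without both low-affinity D arrays the difference was 0.97 ± 0.17 and did pass (limma, adjusted p = 0.0499). Without all of experiment D it was 1.06 ± 0.15 (limma, adjusted p = 0.0240). Over the 30 alternatives the adjusted p ran from 0.00817 to 1.00, the lowest from a setting chosen after seeing the data. With the experiment code as a block the difference was 0.82 ± 0.30 and did not pass (limma, adjusted p = 0.525). With the code as written as a block, 0.75 ± 0.37 did not pass either (limma, adjusted p = 0.870). Within experiments, the light zone array was above its dark zone partner in 7 of 7 pairs, by 0.21 to 1.64, and the low-affinity pair of experiment D was 0.60 apart. For every gene, the zone pairs of experiment B join both forms of its code. The share of all genes with 7 of 7 pairs in 1 direction was not computed.

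Ly9, or Slamf3 (Entrez 17085), encodes CD229, a receptor with a longer extracellular part than the others of the run. The high-affinity values were 10.12, 10.22, 9.92 and 9.95 in Dzhi and 10.59, 10.43 and 10.41 in Lzhi. As for Slamf1, these groups did not overlap, with the light zone above. In low-affinity cells Dzlo stood at 10.45, 10.26, 9.85 and 10.41 and Lzlo at 10.70, 10.57, 9.85 and 10.65. The experiment D array was again the lowest of each. The difference over both affinities, 0.31 ± 0.14 or 1.24-fold, did not pass (limma, adjusted p = 1.00), and without the 2 arrays it was 0.34 ± 0.08 (limma, adjusted p = 0.160). Light zone arrays were above their partner in 6 of 7 pairs.

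Cd2 (Entrez 12481) was the member with the lowest p between zones and the only one whose high-affinity and low-affinity arrays did not overlap in either zone. Dzhi arrays read 10.27, 10.54, 10.56 and 9.87 and Lzhi arrays 9.27, 9.80 and 9.33, so high-affinity light zone cells were below high-affinity dark zone cells without overlap. Dzlo arrays read 11.09, 10.80, 10.66 and 11.12 and Lzlo arrays 10.43, 10.43, 10.30 and 10.87, which overlap by 1 Lzlo array. The light zone value was 0.63 ± 0.14 below that of the dark zone, a 1.54-fold difference at rank 67 of 19938 by p (limma, adjusted p = 0.138). With the experiment code as a block the difference was -0.68 ± 0.11 and passed (limma, adjusted p = 0.0252), with an adjusted p between 0.0252 and 0.376 over the alternatives. That block joins both forms of code B, and with the code as written as a block the difference did not pass (limma, adjusted p = 0.103), nor with the title number as a replicate block (limma, adjusted p = 0.126). Cd2 was lower in the light zone array in 7 of 7 pairs, with differences from -1.23 to -0.24, and 2 of these pairs join both forms of code B.

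Slamf7 (Entrez 75345), also called CRACC or CD319, is a receptor that binds itself on other cells and is known from NK and plasma cells. Plasma cell markers, 11 of 11 measured, had array means from 7.59 to 7.70 in Dzhi, above every array of Dzlo (7.12 to 7.47), Lzhi (7.17 to 7.58) and Lzlo (7.11 to 7.49), and their part in the Slamf7 values was not tested. The Slamf7 values were 9.59, 9.64, 9.36 and 9.90 in Dzhi and 9.43, 9.17 and 9.04 in Lzhi, and 1 dark zone array lay within the light zone range. They were 9.72, 9.80, 9.09 and 9.79 in Dzlo and 9.46, 9.13, 8.58 and 9.24 in Lzlo, where the overlap came from the experiment D array of Dzlo. The light zone value was 0.45 ± 0.15 below that of the dark zone, or 1.37-fold (limma, adjusted p = 0.603). It was below in 7 of 7 pairs, from -0.67 to -0.16, and without both low-affinity D arrays the difference was -0.45 ± 0.10 (limma, adjusted p = 0.160, with 0.0403 to 0.905 over the alternatives). With the title number as a replicate block the difference was -0.52 ± 0.10 and passed (limma, adjusted p = 0.0403), the lowest of adjusted p-values that ran up to 0.905 over the alternatives.

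Slamf6 (Entrez 30925) encodes Ly108, a receptor that binds itself between B cells and follicular helper T cells. Its Dzhi values were 8.39, 8.49, 8.75 and 8.84 and its Lzhi values 8.16, 7.99 and 7.71, with every light zone array below. Low-affinity arrays stood at 8.94, 8.72, 7.69 and 8.63 in Dzlo and at 8.45, 8.21, 7.49 and 9.11 in Lzlo. The experiment D arrays were again the lowest, while Lzlo replicate 4, from experiment C, was the highest of all 15. The difference was -0.42 ± 0.23 (limma, adjusted p = 1.00), and 6 of 7 pairs were below 0, the exception being the low-affinity pair of experiment C. Without both low-affinity D arrays it was -0.42 ± 0.15 (limma, adjusted p = 0.656, with 0.553 to 1.00 over the alternatives).

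Cd84 (Entrez 12523) encodes another receptor that binds itself in B and T cell contacts. It spread widely within high-affinity groups, with 6.21, 6.87, 6.20 and 6.81 in Dzhi and 7.48, 7.10 and 5.85 in Lzhi, where 1 light zone array lay below every dark zone array. Dzlo stood at 7.46, 6.80, 6.86 and 7.0 and Lzlo, the tightest group, at 7.27, 7.14, 7.11 and 7.53. The difference between zones, 0.26 ± 0.22, had a 95% interval from -0.20 to 0.72. It rested on single arrays, being 0.50 without Lzhi replicate 4 (limma, adjusted p = 0.521, the lowest over the alternatives) and 0.093 without Lzhi replicate 1, and it was 0.26 ± 0.24 without both low-affinity D arrays.

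Cd48 (Entrez 12506), the ligand of CD2, was the member with the smallest zone difference. High-affinity arrays read 9.47, 9.62, 9.72 and 9.54 in Dzhi and 9.63, 9.63 and 9.33 in Lzhi. Low-affinity arrays read 9.60, 9.47, 8.68 and 9.50 in Dzlo and 9.77, 9.58, 8.94 and 9.81 in Lzlo, with the experiment D array far below the others in both. The zone difference of 0.08 ± 0.16 had a 95% interval from -0.26 to 0.41, and it was 0.07 ± 0.08 without both low-affinity D arrays, so the receptor CD2 and its ligand did not show the same size of difference in these arrays, although the difference between them was not tested.

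**Figure D2:**
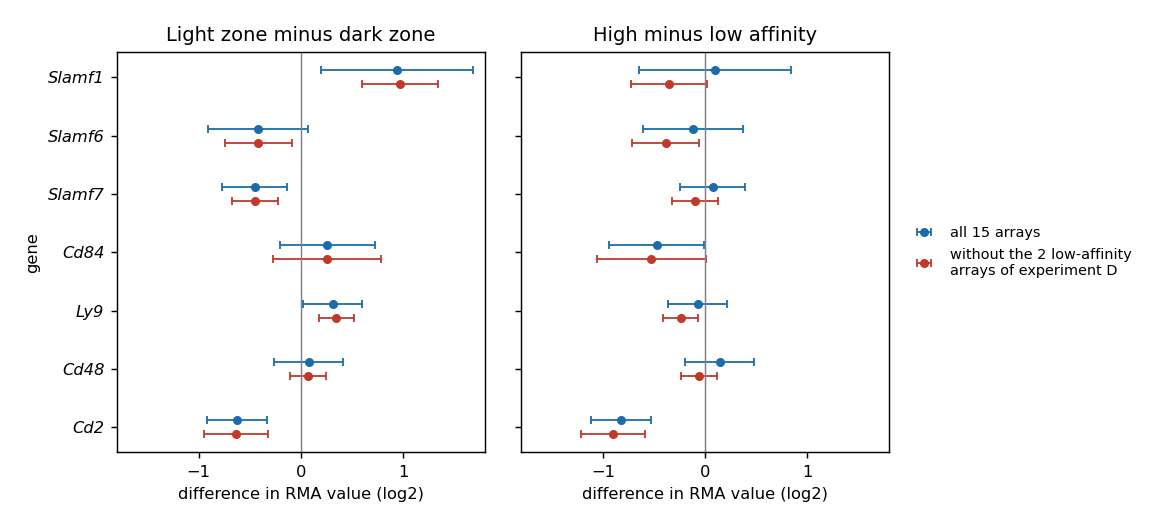
Differences in RMA value (log2) with 95% intervals for each receptor gene, light zone minus dark zone on the left and high minus low affinity on the right, from all 15 arrays (blue) and without both low-affinity D arrays (red). Slamf1 stands to the right of 0 and Cd2 and Slamf7 to the left between zones, and between affinities Cd2 lies farthest to the left, at -0.82 with all arrays.

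For affinity, 0 members were called within either zone or over both, and in limma 0 of all genes were called in each of these comparisons (0%). At an unadjusted p under 0.05 the members were 1 of 7 in the light zone against 4% of all genes, 1 of 7 in the dark zone against 1.6%, and 2 of 7 over both zones against 4.3%. Cd2 was the member in each, and Cd84 joined it over both zones. The members' median differences were 0.00 in light zone cells, -0.08 in dark zone cells and -0.08 over both, beside 0.00 for all genes in each.

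Cd2 was lower in high-affinity cells in both zones. Its highest Lzhi array, at 9.80, lay below its lowest Lzlo array, at 10.30, and its highest Dzhi array, at 10.56, lay below its lowest Dzlo array, at 10.66. Such a lack of overlap occurred in 1 of 7 members in the light zone, against 4.55% of all genes, and in 1 of 7 in the dark zone, against 1.11%. Lower values in high-affinity cells without overlap in both zones occurred for 10 genes in all, or 0.0502%, of which Cd2 was 1. Without both low-affinity D arrays, 2 of 7 members did not overlap in the light zone (Cd2 and Slamf6), against 7.47% of all genes, and 2 of 7 in the dark zone (Cd2 and Ly9), against 3.31%. Cd2 was then 1 of the genes lower without overlap in both zones, which were 0.13% of all. The light zone difference was -1.04 ± 0.20, or 2.06-fold (limma, adjusted p = 0.751), at rank 4 of all genes. The dark zone difference was -0.61 ± 0.19, or 1.52-fold, at rank 30 (limma, adjusted p = 1.00).

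Over both zones the difference in Cd2 was -0.82 ± 0.14, or 1.77-fold, at rank 2 of 19938 genes (limma, adjusted p = 0.348). The high-affinity array was lower in 7 of 7 pairs from the same experiment, with differences from -1.54 to -0.26. With the experiment code as a block it was -0.88 ± 0.11 (limma, adjusted p = 0.0674), and with quantile normalization repeated over the genes tested it was -0.88 and passed (limma, adjusted p = 0.0114). Over the 30 alternatives the adjusted p ran from 0.0114 to 0.957 and the difference from -0.91 to -0.75. T cells carry CD2, and the T cell marker mean lay between 5.03 and 5.29 in high-affinity arrays and between 5.02 and 6.50 in low-affinity ones, so the ranges overlapped. With that mean as a covariate the difference was -0.85 ± 0.15 (limma, adjusted p = 0.464), and without both low-affinity D arrays it was -0.90 ± 0.15 (limma, adjusted p = 0.440). Lzlo replicate 4 stayed in both fits, with a T cell marker mean of 5.74 and the highest Cd2 value of its group, 10.87. In deviations from group means, Cd2 correlated with the T cell marker mean at r = -0.11 over 15 arrays. Over the 13 arrays without both low-affinity D arrays it was 0.42. By experiment, the Cd2 difference was -1.17, -0.63 and -1.54 in light zone cells of A, B and C, and -0.82, -0.26, -0.56 and -0.80 in dark zone cells of A to D. The part of T cells in these differences was not tested.

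By group mean Cd2 ran from Dzlo at 10.92 ± 0.22 (SD, n = 4) through Lzlo at 10.51 ± 0.25 (n = 4) and Dzhi at 10.31 ± 0.32 (n = 4) to Lzhi at 9.47 ± 0.29 (n = 3). Of the neighbours in this order, Dzhi and Lzhi did not overlap, while Dzlo with Lzlo and Lzlo with Dzhi did, and Lzlo and Dzhi differed by less than the larger SD. For the other members, neighbouring groups overlapped at each step, and their means differed by less than the larger SD at all steps but 1, that of Slamf7 from Dzlo to Lzhi.

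Cd84 stood 0.48 ± 0.22 lower in high-affinity cells over both zones (limma, adjusted p = 0.999), and the arrays overlapped in both zones. Its light zone difference of -0.45 ± 0.32 rested on 1 array, Lzhi replicate 4 at 5.85, without which it was 0.03. High-affinity arrays were lower in 5 of 7 pairs, from -1.67 to 0.21.

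For the other 5 members the affinity difference over both zones lay between -0.12 and 0.14. The intervals were wide, from -0.65 to 0.84 for Slamf1 and from -0.20 to 0.48 for Cd48, so these arrays do not show that the affinities were alike. Without both low-affinity D arrays, all 7 members were below 0, but the share of all genes below 0 in that fit is not given here. Slamf7 was then at -0.10 ± 0.10 and Cd48 at -0.06 ± 0.08. Slamf1 was then at -0.36 ± 0.17, Slamf6 at -0.39 ± 0.15 and Ly9 at -0.24 ± 0.08, with adjusted p-values of 0.998 in limma. Within experiments A, B and C, the Slamf1 difference in dark zone cells was -0.63, -0.50 and -0.93, and in experiment D it was 1.75.

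Whether the zone difference depended on affinity was tested as an interaction. In limma's interaction, 0 members were called, as were 0% of all genes, and 0 of 7 had an unadjusted p under 0.05, against 1.33% of all genes. Cd2 had an interaction of -0.44 ± 0.28 with a 95% interval from -1.03 to 0.16, the zones being farther apart in high-affinity cells. The zone pairs of Cd2 ran from -1.23 to -0.74 in high-affinity cells (3 pairs) and from -0.66 to -0.24 in low-affinity cells (4 pairs). They did not overlap, but the share of all genes without such overlap was not computed. With the experiment code as a block the interaction was -0.54 ± 0.22, with an interval from -1.03 to -0.04 (limma, adjusted p = 1.00). Its unadjusted p was under 0.05 in 6 of 30 alternatives, and the adjusted p was 0.999 or above in all 30. The 7 values ran from -0.48 to 0.35.

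**Figure D3:**
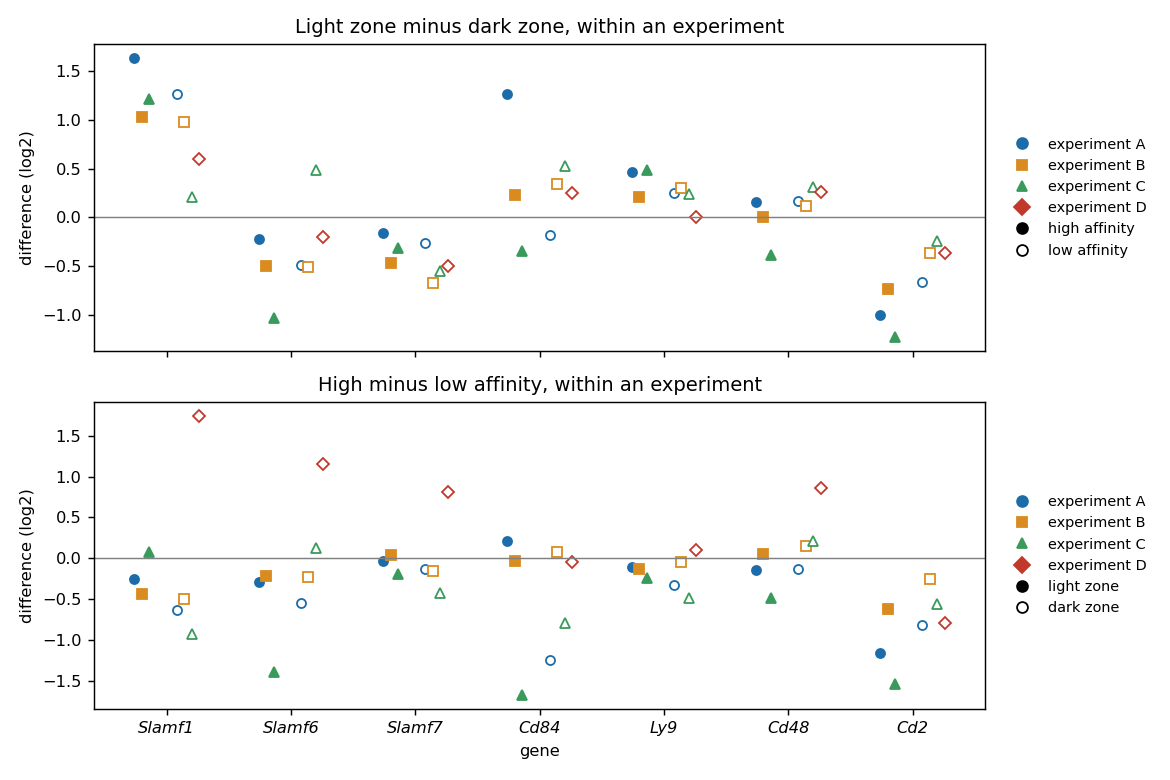
Differences (log2) between arrays of the same experiment for each receptor gene, light zone minus dark zone above (7 pairs, filled for high affinity) and high minus low affinity below (7 pairs, filled for light zone). Zone pairs of experiment B join both forms of its code. Slamf1 is above 0 and Cd2 and Slamf7 are below 0 in all 7 zone pairs, Cd2 is below 0 in all 7 affinity pairs, and the red diamond of experiment D is above the other affinity pairs for Slamf1, Slamf6, Slamf7 and Cd48.

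The low-affinity arrays of experiment D differed from the other 3 arrays of their group in most members and in most T cell markers, in opposite directions. In Dzlo replicate 3, 6 of 7 members lay below the other 3 arrays and 0 above, against 21.2% and 39.6% of all genes. In Lzlo replicate 3, 7 of 7 lay below, against 22.0% of all genes. Slamf1 was -1.71 and -1.93 from the mean of the other 3 arrays, and 1.57% and 1.25% of genes were as low or lower by that measure. Slamf6 was next at -1.07 and -1.10, and Cd48, Ly9 and Slamf7 were between -0.84 and -0.53. Cd2 and Cd84 lay closest, with -0.34 and -0.28 for Cd2 and -0.23 and -0.20 for Cd84.

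Of the 17 T cell markers, 11 in Dzlo replicate 3 and 14 in Lzlo replicate 3 lay above the other arrays of the group. The shares of all genes above were 39.6% and 42.7%. In Dzlo replicate 3, 2 of the markers lay below, Themis among them, and Cd3g lay within the other arrays in both groups. Cd3d, a chain of the T cell receptor complex, was 1.32 and 3.17 above their mean, Cd8b1 1.17 and 2.10, and Thy1 1.19 and 2.04. Sh2d1a, which encodes the adaptor SAP of T and NK cells, stood at 4.85 and 4.72 in the same 2 arrays, above each other array of their groups and 0.49 and 0.53 above the mean of those, and within its range of 4.11 to 5.18 over the other 13 arrays. Cd3d and Cd3g were also high in Lzlo replicate 4 of experiment C, at 7.32 and 7.60. All members but Cd84 in Dzlo replicate 3 were thus lower, not higher, in the 2 arrays, Cd2 included, and the part of other cells in these values was not tested. The high-affinity dark zone array of the same experiment, Dzhi replicate 4, had a T cell marker mean of 5.26 and the highest Slamf1 value of its group.

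**Figure D4:**
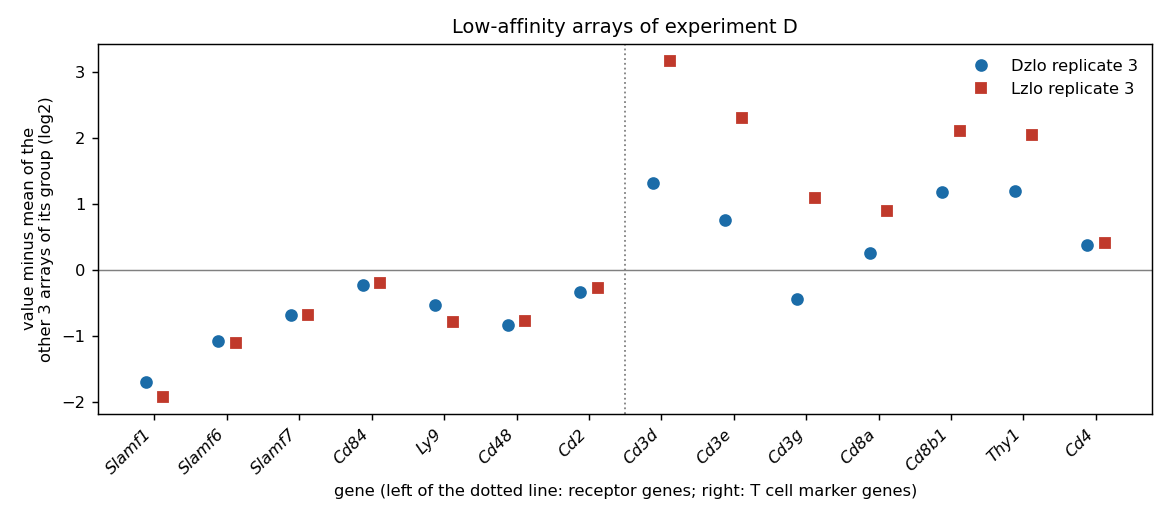
Value of each gene in the 2 low-affinity arrays of experiment D minus the mean of the other 3 arrays of the same group (log2), receptor genes left and T cell marker genes right of the dotted line. All 7 receptor genes lie below 0 in both arrays, with Slamf1 lowest at -1.71 and -1.93, and Cd3d is highest at 3.17 in Lzlo replicate 3.

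Deviations of the arrays from their group mean were compared between members as a description, over arrays that share sorts, amplification and the 2 arrays above. Over 15 arrays Slamf1 correlated with Slamf7 at r = 0.93 and Slamf6 with Cd48 at 0.92. Over the 13 arrays without those 2, the values were 0.75 and 0.69, and that of Slamf1 with Cd48 went from 0.85 to -0.04. Cd2 did not follow Slamf1, with r = 0.12 over 15 arrays and -0.70 over 13. Among all genes the 3 most like Cd2 were Mrps28, Ufm1 and Smim11, at 0.96, 0.96 and 0.94 over 15 arrays and 0.97, 0.96 and 0.94 over 13. For Slamf1 they were Sf3b1 at 0.99, Trmt1l and Slc12a2 at 0.97 each, and over 13 arrays these stood at 0.92, 0.81 and 0.86. Cd84 was most like Tcf12, at 0.94 and 0.96. Slamf7 shared Sf3b1 with Slamf1 as its most alike gene, at 0.96 over 15 arrays and 0.87 over 13. The first genes for the others were 2810002D19Rik for Slamf6 (0.96 and 0.94), Nampt for Ly9 (0.97 and 0.80) and Akr1e1 for Cd48 (0.98 and 0.91).

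Of 19 genes for partners that bind the receptor tails or act behind them, 17 were measured, and 0 were called in any of the 5 comparisons. Between zones 3 of 17 had an unadjusted p under 0.05, all higher in the light zone, against the 4.38% of all genes given above. Ptpn6, which encodes the phosphatase SHP-1, ran from 10.70 to 11.16 in Dzhi, 10.72 to 11.14 in Dzlo, 11.11 to 11.45 in Lzhi and 11.27 to 11.75 in Lzlo. Its light zone value was 0.41 ± 0.10 higher (limma, adjusted p = 0.240) and lay above that of its partner in 7 of 7 pairs. Fyn, the kinase that SAP recruits, was 0.55 ± 0.24 higher, and Grb2, an adaptor, 0.31 ± 0.13 higher. Without both low-affinity D arrays these were 0.42 ± 0.12 for Ptpn6, 0.54 ± 0.28 for Fyn and 0.35 ± 0.13 for Grb2. The Fyn value also moved with single arrays, to 0.81 ± 0.17 without Lzhi replicate 4 and to 0.39 ± 0.24 without Lzhi replicate 1. Of the 3 further receptors of the family, Cd244a, Slamf8 and Slamf9, Slamf9 had the largest zone difference at -0.35 ± 0.13, lower in the light zone (limma, adjusted p = 0.763). The partners' median zone difference was 0.05.

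Between affinities the partners with the lowest p-values were Fyn and Pstpip1, which encodes an adaptor that binds the CD2 tail. Pstpip1 ran from 7.58 to 7.80 in Dzhi and 7.88 to 9.10 in Dzlo, which did not overlap (1.11% of all genes did not in that comparison), and from 7.61 to 7.90 in Lzhi and 7.87 to 9.49 in Lzlo, which did. Over both zones its difference was -0.80 ± 0.23, lower in high-affinity cells (limma, adjusted p = 0.999) and lower in 7 of 7 pairs. It was -0.79 ± 0.34 in the light zone and -0.80 ± 0.31 in the dark zone. The highest array of each low-affinity group was that of experiment D, and without both it was -0.47 ± 0.23, -0.59 ± 0.21 and, over both zones, -0.53 ± 0.16 (limma, adjusted p = 0.998). Fyn ran from 7.67 to 9.37 in Lzhi and from 9.51 to 9.83 in Lzlo, and its differences were -0.93 ± 0.36 in light zone cells, -0.57 ± 0.33 in dark zone cells and -0.75 ± 0.24 over both. The light zone value rested on Lzhi replicate 4, at 7.67, without which it was -0.39 ± 0.27, and -0.48 ± 0.17 over both zones. In the dark zone it was -0.31 ± 0.32 without Dzhi replicate 1. The partners' median over both zones was -0.17, with 12 of 17 below 0, beside 0.00 for all genes.

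Sh2d1a, Sh2d1b1 and Inpp5d stood closer to 0 than Fyn and Ptpn6, both between zones and between affinities over both zones. Sh2d1a was dim, with group means from 4.25 to 4.60, below the median of all gene means, 5.78. Sh2d1a differed by -0.26 ± 0.15 between zones and 0.02 ± 0.15 between affinities. Sh2d1b1, which encodes the SAP relative EAT-2, differed by -0.13 ± 0.27 and 0.06 ± 0.27. Inpp5d, the gene of the phosphatase SHIP1, differed by 0.23 ± 0.14 and -0.09 ± 0.14. In the interaction the lowest p-values of the list were those of Inpp5d, at -0.44 ± 0.28, and Sh2d1b1, at -0.69 ± 0.55.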

How the data were processed

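RNA of 15 sorted samples was amplified with Ovation Pico WTA and hybridised to 15 arrays, per the labels' protocols. The authors deposited RMA values on the log2 scale for 28853 probe sets, with genome build mm8, per the submitters' processing notes. The software version is not given in the sources used. RMA compresses differences of dim probe sets, and amplification adds spread between samples.

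Groups came from the sample titles. Of the probe sets, 21789 had 1 gene in the platform annotation, 1621 several and 5443 none. For 999 genes with several probe sets, the brightest on average stood for the gene, giving 19938 genes, with no filter on dim ones. Arrays correlated at 0.940 to 0.993, so no sample was treated as a duplicate.

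Limma 3.58.1 in R 4.3.3 fitted 4 group means to 15 arrays with 11 residual degrees of freedom, followed by Benjamini-Hochberg adjustment over all genes of a comparison. The members, lists and rule for named genes (all members, 5 fixed partners, the 2 lowest p-values among partners, and 3 genes most like each member) were chosen with earlier results of these data known. Single T cell markers were picked after their values were seen.

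Experiment codes took 5 forms and were merged into 4. Arrays of different groups deviated together more often with the same code (16 of 21 pairs with r above 0.1, mean 0.288) than with different codes (21 of 63, mean -0.0820). For the same title number it was 15 of 21, mean 0.227. The labels do not state what the code or number marks, so both blocks are alternatives. Others changed the normalization, filter, probe set rule, variance model, array weights, T cell covariate and arrays included. Figures were drawn with matplotlib 3.10.9. Some list genes are not reported here.

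On simulated data, genes changed by 1 on the log2 scale were recovered in 85.0% of cases between zones and 74.0% for affinity in the light zone. Recovery was 71.0% in the dark zone, 85.0% for affinity over both zones and 31.0% for the interaction. Many genes were changed at once, some by more than 1, which eases the adjusted threshold. The noise was independent between arrays, so deviations shared within an experiment were left out. These shares are therefore not the chance that such a difference would be called in the real arrays.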

Additional observations from a re-analysis of the deposited data

Results flagged for a closer look

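In groups of 4 arrays, a member's highest or lowest array stood far from the other 3 in 4 of 24 group tests (the T cell marker mean included). Independent tests would flag about 1 in 20 by chance. These tests share arrays, however, and the share of all genes flagged is not given here. Slamf1 was 8.85 in Dzhi replicate 4, above 8.12 to 8.13 in the other 3 arrays. This is the high-affinity dark zone array of experiment D. Slamf7 was 9.09 in Dzlo replicate 3, below 9.72 to 9.80. Cd48 was 8.68 in the same array, below 9.47 to 9.60. Ly9 was 9.85 in Lzlo replicate 3, below 10.57 to 10.70. The last 3 values come from the 2 low-affinity arrays of experiment D. The neutrophil marker mean there stood above that of every other array, while the T cell marker mean did so only in Lzlo replicate 3. The part of those cells was not tested.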

How the results depend on the processing

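Over 30 alternatives, the zone differences of Slamf1, Slamf6, Slamf7, Cd84, Ly9 and Cd2 kept their sign. The affinity differences that did so were those of Cd2 and Slamf6 in the light zone and Cd2, Cd48, Cd84 and Ly9 in the dark zone. Over both zones they were those of Cd2, Cd84 and Ly9. Of these affinity differences only that of Cd48 in the dark zone was above 0, from 0.07 to 0.37. Leaving out single arrays gave 18 to 37 genes called between zones, against 31 with all, and 0 members. The counts fell to 19, 20, 18 and 20 without Dzlo replicate 1, Lzhi replicate 1, Lzhi replicate 2 and Lzlo replicate 2. Between zones, 49 genes were called at an adjusted p under 0.1, 49 with quantile normalization repeated, 68 with array weights, 90 with the experiment block, 53 with the T cell marker covariate and 83 with the title number as a replicate block. With the experiment block and without both low-affinity D arrays, chosen after seeing the data, it was 136 genes and 2 members, Slamf1 and Cd2. Members called were 1 each with quantile normalization repeated (Cd2), the experiment block (Cd2) and the title number as a replicate block (Slamf7). It was also 1, Slamf1, without those 2 arrays and without experiment D. For affinity over both zones, 2 genes and 1 member, Cd2, were called with quantile normalization repeated, and 1 gene each with array weights, the replicate block and without the 2 arrays. In the dark zone 1 gene was called with quantile normalization repeated and 3 with all probe sets.

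Signs turned for small differences. For affinity in the light zone, array weights gave -0.13 for Slamf1, -0.091 for Ly9 and -0.049 for Cd48, and repeated quantile normalization gave -0.057 for Ly9 and -0.061 for Cd48. The experiment block, in both its forms, gave -0.086 for Ly9 and -0.14 for Cd48, and the replicate block gave -0.051 for Slamf1, -0.029 for Slamf7, -0.089 for Ly9 and -0.12 for Cd48. Without the 2 arrays, without experiment D, and with the block added, Slamf1 was -0.21, Slamf7 -0.058, Ly9 -0.16 and Cd48 -0.19. With the T cell covariate they were -0.48, -0.16, -0.24 and -0.28. Single arrays left out gave -0.21 to 0.57 for Slamf1, -0.058 to 0.23 for Slamf7, -0.16 to 0.12 for Ly9, -0.19 to 0.10 for Cd48 and -0.78 to 0.030 for Cd84.

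For affinity in the dark zone, array weights gave -0.061 for Slamf6 and -0.054 for Slamf7, and the T cell covariate -0.039 for Slamf7. Without the 2 arrays Slamf6 was -0.14 and Slamf7 -0.15, and without experiment D, with or without the block, -0.22 and -0.24. Single arrays left out gave -0.50 to 0.15 for Slamf1, -0.14 to 0.27 for Slamf6 and -0.15 to 0.11 for Slamf7. Over both zones, Slamf1 was -0.24 with array weights, -0.023 and -0.030 with the forms of the experiment block, -0.064 with the replicate block, -0.36 without the 2 arrays and with the T cell covariate, and -0.45 without experiment D. Slamf7 was -0.013 with array weights, -0.0019 with the replicate block, -0.10 without the 2 arrays and with the covariate, and -0.15 without experiment D. Cd48 was -0.063 without the 2 arrays, -0.056 without experiment D and -0.038 with the covariate. Single arrays left out gave -0.14 to 0.25 for Slamf1, -0.25 to 0.016 for Slamf6 and -0.016 to 0.13 for Slamf7. The zone difference of Cd48 was -0.013 with the code as written as a block and -0.028 to 0.17 with single arrays left out. The interaction of Cd84 was -0.0036 with quantile normalization repeated, -0.018 with the replicate block, -0.039 with the covariate and -0.28 to 0.53 with single arrays left out. The cause of these turns was not tested.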
